A study of Rattus norvegicus with 10 samples.

Results

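A list of enzymes that place sulfate on heparan sulfate was described in the prefrontal cortex (PFC) of rats 24 h after footshock (FS). It included Hs3st5, a gene whose PFC values had no overlap between FS rats and controls. The list named 10 genes: Hs3st5, Hs3st1, Hs3st2, Hs3st4, Hs6st1, Hs6st2, Hs6st3, Hs2st1, Ndst1 and Ndst3. A gene was taken from probe sets that carry its symbol alone, and 8 of the 10 genes had such a probe set, 1 each, among the 16941 genes tested. Hs3st4 and Hs6st3 had none and are not analysed here. A probe set annotated as RGD1560050, a RefSeq synonym of Hs6st3 but with another gene ID in the annotation, was not counted. Hs3st5 was selected on its FS minus control difference in these arrays, and the other enzymes were listed around it with the results known, so the differences of the listed genes between the groups are given as descriptions, with standard errors and without a test.

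The samples were whole PFC of 10 adult male Sprague–Dawley rats. The 5 FS rats received an inescapable footshock session of 40 min (0.8 mA, actual shock for 20 min) and were killed 24 h after the session began. The other 5 rats, the controls, received no footshock and remained caged as usual. RNA of each rat was hybridised to 1 whole-transcript array, and the authors' values are RMA levels on the log2 scale, where a difference of 1 is a doubling. Arrays were alike, with correlations of 0.994 to 0.997 between them, and the tissue carried cortical neuron markers throughout (Tbr1 lay between 11.1 and 11.3). Because the PFC was profiled as bulk tissue, fewer cells of a type and less RNA per cell cannot be told apart.

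Heparan sulfate is a long sugar chain carried by cell surface and matrix proteins such as syndecans, glypicans and agrin. While the chain is made in the Golgi, N-deacetylase and N-sulfotransferases (Ndst) first replace acetyl groups by sulfate, an epimerase then turns glucuronic into iduronic acid, Hs2st1 adds 2-O-sulfate, the Hs6st enzymes add 6-O-sulfate, and the Hs3st enzymes add the rare 3-O-sulfate last. The resulting sulfation pattern sets which growth factors, morphogens and adhesion proteins bind the chain, and in the brain heparan sulfate takes part in axon guidance, synapse formation and fibroblast growth factor signalling.

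The promoters of Hs3st5 and Hs6st2 are shown because Hs3st5 had the largest positive difference of the 8 enzymes and because Hs6st2 had the strongest relation to a cell type between rats. Both are RefSeq sequences in build GRCr8, from a table that was matched for 9 of the 10 listed genes (not Ndst3), and run from 250 bases before to 50 bases after the annotated start, 5′ to 3′ on the gene's strand. The Hs3st5 window is chr20:41661535-41661834 on the plus strand, and the Hs6st2 window is chrX:136182105-136182404 on the minus strand. Capitals mark the motifs found on either strand.
Hs3st5: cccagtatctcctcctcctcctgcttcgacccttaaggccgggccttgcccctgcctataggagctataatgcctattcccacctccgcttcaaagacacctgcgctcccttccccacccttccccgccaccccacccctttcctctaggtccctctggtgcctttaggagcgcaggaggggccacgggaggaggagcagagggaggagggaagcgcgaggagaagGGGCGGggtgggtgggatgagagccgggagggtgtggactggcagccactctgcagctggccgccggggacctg
Hs6st2: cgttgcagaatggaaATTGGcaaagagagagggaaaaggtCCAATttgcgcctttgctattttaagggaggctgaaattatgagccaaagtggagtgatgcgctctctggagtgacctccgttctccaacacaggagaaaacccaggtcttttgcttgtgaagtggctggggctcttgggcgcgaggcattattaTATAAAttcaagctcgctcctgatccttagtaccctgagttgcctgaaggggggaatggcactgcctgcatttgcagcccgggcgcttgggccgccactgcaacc

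Each motif was searched on both strands, and its share was counted over all 33469 promoters of the same length. GGGCGG, the GC box, occurs in 33.1% of them. CCAAT, an upstream promoter element, occurs in 37.5%. TATAAA, the core of the TATA box, occurs in 14.2%. TGACG, part of the cyclic AMP response element, occurs in 21.2%. AGAACA, part of the glucocorticoid response element, occurs in 20.7%. CACGTG, an E box, occurs in 6.42%. The Hs3st5 window was 66.0% GC with 13 CG steps and held 1 GGGCGG, 24 bases before the start, and none of the other 5 motifs. The Hs6st2 window was 52.3% GC with 10 CG steps and held CCAAT at 235 and 210 bases before the start, the first on the opposite strand, and TATAAA at 55 bases before it. It was the only window with TATAAA among the 9 listed genes found. The median over all promoters was 51.7% GC with 7 CG steps. The other windows of the list ranged from 54.3% GC with 6 CG steps (Ndst1) to 82.7% GC with 46 CG steps (Hs3st4). AGAACA and the E box were in none of the 9 windows. A match describes the letters of the window and not a bound site.

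Among the 3-O-sulfotransferases, Hs3st5 was higher in FS rats. The human form of its enzyme makes both the heparan sulfate that antithrombin binds and the form that serves as an entry receptor for herpes simplex virus. Hs3st5 levels in controls 1 to 5 were 8.22, 8.15, 8.33, 8.26 and 8.20. Its levels in FS rats 1 to 5 were 8.49, 8.50, 8.52, 8.43 and 8.38. Every FS rat lay above every control, with a gap of 0.057 between the lowest FS rat (FS 5) and the highest control (control 3). The group means were 8.23 ± 0.066 (SD, n = 5) in controls against 8.46 ± 0.057 (SD, n = 5) after FS, a log2 difference of 0.23 (standard error 0.043), or a level 17.5% higher. The difference lay between 0.21 and 0.26 whichever rat was left out, and the gap remained when the arrays were quantile normalized (0.055) or centred on their medians (0.042). Hs3st5 was listed for this difference, which therefore carries no test here.

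Hs3st1 encodes the main enzyme for the antithrombin-binding form in mice. Its control levels were 10.49, 10.45, 10.42, 10.76 and 10.59, and its FS levels were 10.42, 10.56, 10.44, 10.56 and 10.49. The groups overlapped, and controls 4 and 5 stood above all FS rats. The means were 10.54 ± 0.14 (SD, n = 5) in controls against 10.50 ± 0.066 (SD, n = 5) after FS, a difference of -0.047 (standard error 0.063) that was 0.0081 without control 4. For Hs3st2, a 3-O-sulfotransferase expressed mainly in brain, the control levels were 9.08, 9.07, 9.02, 9.17 and 8.92, and the FS levels were 8.99, 9.01, 9.16, 8.998 and 8.995. FS 3 lay just under the highest control (control 4), while the other 4 FS rats lay between 8.99 and 9.01. The difference of Hs3st2 was -0.021 (standard error 0.051) and turned positive after quantile normalization or without control 4. The 3-O-sulfotransferases of the list thus had differences of unlike sign and size, and only that of Hs3st5 exceeded the range within both groups.

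**Figure D1:**
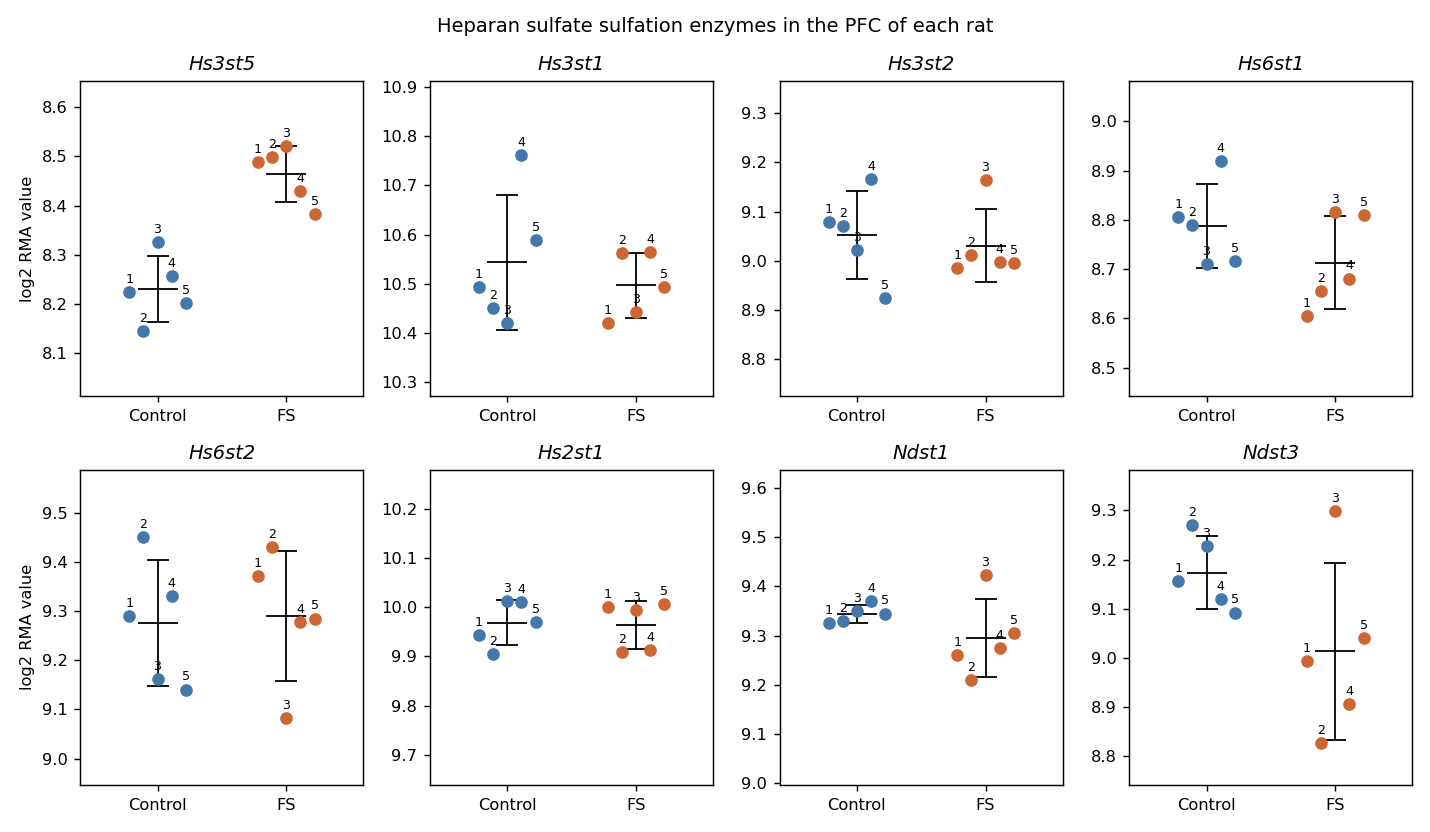
Levels of the 8 heparan sulfate sulfation enzymes in each rat (log2 RMA value, vertical axis, a separate offset per gene) in controls and FS rats, with points numbered by rat, the long bar at the mean and the short bars at 1 SD (n = 5). Hs3st5 is the only gene whose groups do not overlap, and FS 3 stands above the other FS rats for Hs3st2, Ndst1 and Ndst3.

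The 6-O-sulfotransferases act on glucosamine, and 6-O-sulfate is needed for many fibroblast growth factors to signal through their receptors. Hs6st1 had control levels of 8.80, 8.79, 8.71, 8.92 and 8.72, and FS levels of 8.60, 8.65, 8.82, 8.68 and 8.81. The groups overlapped, with FS 1, FS 2 and FS 4 below all controls and the other 2 FS rats within the control range. The means were 8.79 ± 0.085 (SD, n = 5) in controls against 8.71 ± 0.095 (SD, n = 5) after FS, a difference of -0.075 (standard error 0.055) that was -0.042 without control 4 and -0.048 without FS 1. Hs6st2 had control levels of 9.29, 9.45, 9.16, 9.33 and 9.14, and FS levels of 9.37, 9.43, 9.08, 9.28 and 9.28. These were evenly mixed between the groups, from FS 3 as the lowest rat to control 2 as the highest. Its difference was 0.014 (standard error 0.073), and its SD was 0.13 in both groups (n = 5 each).

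Hs2st1, the only 2-O-sulfotransferase for heparan sulfate, had control levels of 9.94, 9.90, 10.01, 10.01 and 9.97, and FS levels of 9.9997, 9.91, 9.99, 9.91 and 10.01. All 10 rats lay within a narrow common range. The means were 9.97 ± 0.046 (SD, n = 5) in controls against 9.96 ± 0.049 (SD, n = 5) after FS, a difference of -0.0037 (standard error 0.038), the smallest of the 8.

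The N-sulfotransferases of the list were lower in 4 of 5 FS rats. Ndst1, which makes most of the N-sulfate of mouse tissues, had control levels of 9.33, 9.33, 9.35, 9.37 and 9.34, and FS levels of 9.26, 9.21, 9.42, 9.27 and 9.31. The controls were tightly grouped, 4 FS rats lay below all of them, and FS 3 lay above all of them. The difference was -0.049 (standard error 0.041), with an SD of 0.079 in FS rats and 0.018 in controls, a ratio of 4.50 (n = 5 each). Whether the spread differed between the groups was not tested. Ndst3, a brain-enriched relative with strong deacetylase and weak sulfotransferase activity for the mouse enzyme, had control levels of 9.16, 9.27, 9.23, 9.12 and 9.09, and FS levels of 8.99, 8.83, 9.30, 8.91 and 9.04. The same split was seen, with FS 1, 2, 4 and 5 below all controls and FS 3 above them. The means were 9.17 ± 0.074 (SD, n = 5) in controls against 9.01 ± 0.18 (SD, n = 5) after FS, a difference of -0.16 (standard error 0.076), or a level 10.5% lower. Leaving out single rats gave differences of -0.23 to -0.11 for Ndst3 and -0.081 to -0.028 for Ndst1.

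Of the 8 enzymes, 2 were higher and 6 lower in FS rats, with a median difference of -0.034, against 0.00044 over all probe sets tested. The median absolute difference was 0.048 for the enzymes and 0.046 over all probe sets, and the median SD was 0.080 in controls and 0.077 in FS rats, against 0.082 and 0.075. Groups did not overlap for 1 enzyme, Hs3st5. Over all 18304 probe sets, all FS rats lay above all controls for 0.972% and below them for 0.972%, and 0% had a limma adjusted p under 0.05, a threshold that 0 of the 8 enzymes passed. The list was drawn up with Hs3st5's difference known, so nothing is read from these shares. Differences also depended on level. Among the 3577 probe sets with a mean level of 8 to 9, where Hs3st5 lies, the median difference was -0.026, with 5% below -0.13 and 5% above 0.079, and all FS rats lay above all controls for 13 (0.363%). All the enzymes except Hs3st1 had mean levels between 8 and 10. The share of probe sets higher in FS rats was 33.4% between 8 and 9 and 32.4% between 9 and 10, against 50.3% over all levels. Between 9 and 10 the median difference was -0.023.

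Heparan sulfate pathway and related genes, below referred to as pathway genes, were examined next. They were 80 further genes in 10 lists, of which 71 were tested. The lists included chondroitin and dermatan sulfotransferases (8 tested), chondroitin chain enzymes (8 tested) and fibroblast growth factors with receptors (9 tested). In limma, 0 of these 71 had an adjusted p under 0.05 (range 0.35 to 0.997). At an unadjusted p under 0.05, 8 genes (11.3%) were higher and 1 (1.41%) was lower in FS rats, against 5.75% higher and 4.09% lower over all probe sets. The 8 were Hs3st3a1, Hs3st6, Xylt2, Slc35b2, Sdc1, Chst3, Chst13 and Csgalnact2, and the other was Papss2. Of the 8, Chst3, Chst13 and Csgalnact2 came from the chondroitin lists. The counts of higher and lower genes moved with the settings and the rats included. Leaving out single rats gave 5 to 8 higher and 0 to 3 lower, and an intensity trend in the variance gave 5 and 3. In all, 36 genes were higher and 35 lower, with a median difference of 0.0030. Each of the 8 higher genes had a mean level of at most 8.38 in FS rats, and probe sets of lower level leaned upward on these arrays. Of those between 6 and 7, 71.2% were higher in FS rats, against 55.2% between 7 and 8 and 33.4% between 8 and 9. Over the 10 rats, Hs3st3a1 and Chst3 had means between 6 and 7 and Csgalnact2 between 8 and 9. The rest of the 8 lay between 7 and 8, where the lean was slight. The part of this lean in the count was not tested. The lists were chosen with earlier results of these data known, so nothing is read from the 11.3% and 1.41%.

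The other heparan sulfate sulfotransferases held the largest difference in each direction among these lists. Hs3st3a1, a 3-O-sulfotransferase that makes the viral receptor form in humans, had control levels of 6.01, 6.25, 6.30, 6.13 and 6.43 and FS levels of 6.48, 6.57, 6.42, 6.48 and 6.49. FS rats were in a narrow band, 4 of them above all controls and FS 3 just under control 5. Its log2 difference was 0.26 (standard error 0.068, unadjusted p = 0.00208, adjusted p = 0.35 in limma), and after quantile normalization all 5 FS rats lay above all controls, by 0.030. Hs3st6, another 3-O-sulfotransferase, had control levels of 7.003, 6.997, 7.07, 6.89 and 7.07 and FS levels of 7.21, 7.29, 7.11, 7.09 and 7.22. All FS rats lay above all controls, by a gap of 0.020 that closed to an overlap of the groups (-0.020) after quantile normalization, and the difference was 0.18 (standard error 0.050, adjusted p = 0.354 in limma). It was the only gene of the 71 with that pattern (1.41%, against 0.972% of all probe sets), and 0 had all FS rats below all controls. Among probe sets with a mean level of 7 to 8, where Hs3st6 lies, 1.39% had all FS rats above all controls. Hs3st3b1, which makes a nearly identical 3-O-sulfotransferase domain to Hs3st3a1, had a difference of -0.14 (standard error 0.12, adjusted p = 0.71 in limma). Of the 3-O-sulfotransferase genes measured, Hs3st5, Hs3st3a1 and Hs3st6 had differences of 0.23, 0.26 and 0.18. Those of Hs3st1, Hs3st2 and Hs3st3b1 were -0.047, -0.021 and -0.14, with standard errors of 0.063, 0.051 and 0.12. The genes are sorted here by sign alone, and whether they form separate groups was not tested. The list that holds Hs3st3a1 and Hs3st6 was chosen with earlier results known, so their p-values are given as descriptions.

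Ndst2 and Ndst4 complete the N-sulfotransferases. Ndst2, which acts mainly in mast cells in mice, had a difference of -0.030 (standard error 0.049, adjusted p = 0.866 in limma). Ndst4 had control levels of 7.98, 7.72, 8.12, 9.36 and 10.08 and FS levels of 7.94, 8.45, 7.43, 8.05 and 7.45. The spread lay in the controls, where controls 4 and 5 stood above all other rats, and the remaining 3 controls lay within the FS range. Its means were 8.65 ± 1.02 (SD, n = 5) in controls against 7.86 ± 0.43 (SD, n = 5) after FS, a difference of -0.79 (standard error 0.40, adjusted p = 0.535 in limma) that was -0.43 without control 5. All 4 Ndst genes had a difference below 0, and none passed the threshold. Their mean levels lay between 8 and 10, where most probe sets were lower in FS rats. Only 33.4% of those between 8 and 9 and 32.4% of those between 9 and 10 were higher.

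**Figure D2:**
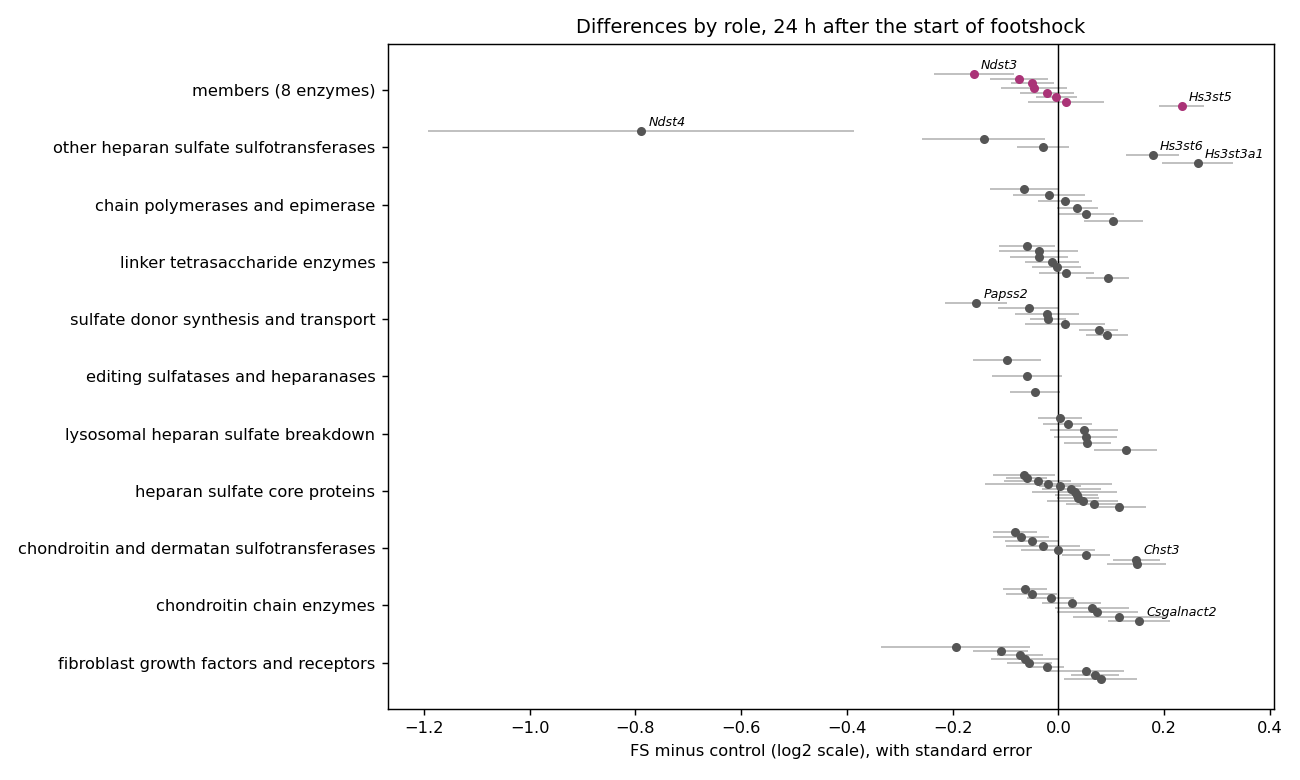
FS minus control differences (log2 scale, horizontal axis) of the 8 sulfation enzymes (coloured) and of 71 further genes, grouped by role along the vertical axis, with bars of 1 standard error (5 rats per group). Hs3st5 (0.23) and Hs3st3a1 (0.26) lie farthest to the right and Ndst4 (-0.79), with the widest bar, farthest to the left.

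Genes that build the chain showed small differences in either direction. Of the polymerases and the epimerase, 4 were higher and 2 lower (median 0.024), from Extl2 (0.10), a regulator of chain formation, to Extl1 (-0.066). Of the enzymes for the linker that joins the chain to its protein, 2 were higher and 5 lower (median -0.012), with the first-step xylosyltransferases at either end, Xylt2 at 0.093 and Xylt1 at -0.060. Single rats carried much of the negative values, since Extl1 was at -0.013 without FS 2 and Xylt1 at -0.017 without control 5. The polymerases Ext1 and Ext2 were at -0.018 and 0.012. In these lists, 0 of 13 genes passed the adjusted threshold in limma (lowest adjusted p 0.499), and 1 of 13, Xylt2, had an unadjusted p under 0.05.

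The sulfate donor for all of these enzymes is PAPS, made by Papss1 and Papss2 and carried into the Golgi by Slc35b2 and Slc35b3. Of 7 genes tested, 3 were higher and 4 lower (median -0.019). Papss2 had the largest difference, -0.16 (standard error 0.059, adjusted p = 0.441 in limma), with 3 FS rats below all controls. Papss1, the other synthase gene, was at -0.022 (adjusted p = 0.924), and its SD was 0.15 in FS rats and 0.017 in controls. Slc35b2 was at 0.092 and Slc35b3 at -0.056 (adjusted p = 0.492 and 0.769 in limma).

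Genes that edit or break down the chain after synthesis were in lists of opposite sign. The extracellular 6-O-endosulfatases Sulf1 (-0.060) and Sulf2 (-0.045) and the heparanase gene Hpse (-0.097) were all lower, 3 of 3 (median -0.060). The lysosomal enzymes and Sumf1, which activates sulfatases, were higher in 6 of 6 (median 0.050), from Ids at 0.0030 (standard error 0.042) to Arsg at 0.13. The count of 6 included Ids, whose sign turned with array weights (-0.0065) and without 4 of the 10 rats in turn (to -0.024 without FS 3), and 4 of the 6 genes, Naglu, Gusb, Arsg and Sumf1, had levels between 6 and 8. Sulf1 was at -0.0080 without control 4, and Hpse at -0.060 without FS 1 and -0.15 without FS 4. In these lists 0 genes passed the adjusted threshold (adjusted p 0.51 to 0.99 in limma) and 0 had an unadjusted p under 0.05.

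The core proteins that carry heparan sulfate were higher in 8 and lower in 4 of 12 genes tested (median 0.027), with 0 past the adjusted threshold in limma. Sdc1, the syndecan best known from epithelia, was at 0.12 (adjusted p = 0.499), and agrin, an organiser of synapses at the neuromuscular junction, was at -0.060 (Agrn, adjusted p = 0.624). The neuronal syndecan Sdc3 was at 0.0036 and the glypicans Gpc4 and Gpc5 at 0.067 and -0.065. Chondroitin sulfate, the related chain of perineuronal nets, was examined in 16 genes. Its sulfotransferases were higher in 3 and lower in 5 of 8 (median -0.015), from Chst3 and Chst13, each at 0.15 (adjusted p = 0.371 and 0.441), to Chst11 at -0.083. Its chain enzymes were higher in 5 and lower in 3 of 8 (median 0.044), from Csgalnact2 at 0.15 (adjusted p = 0.444) to Chsy1 at -0.063 (-0.033 without control 5). Among the listed genes of the fibroblast growth factor family and of fibroblast growth factor receptors, 3 were higher and 6 lower of 9 (median -0.055). By the moderated statistic Fgf14, at 0.069, and Fgfr1, at -0.11 (adjusted p = 0.51), stood at the ends. The difference of Fgf1 was larger but less precise (-0.19, standard error 0.14, adjusted p = 0.659 in limma), and 0 passed either threshold.

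How the enzymes varied among rats of the same group does not enter the FS minus control difference, and was compared over the deviations of the 10 rats from their group means. Each relation was tested by an exact two-sided permutation of the rats within groups (14400 orders), with adjustment over the 28 pairs of enzymes. After adjustment, 0 pairs passed 0.05 by Pearson's r or Spearman's rho, and 5 had an unadjusted p under 0.05. Of the pairs, 17 were positive and 11 negative, with a median absolute r of 0.374, against 0.279 over all 143490270 pairs of tested genes. An absolute r of 0.7 or more was reached by 3 pairs (10.7%), against 4.87% of all gene pairs.

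These 3 pairs were Ndst1 with Ndst3, Hs3st2 with Hs6st1, and Hs6st2 with Ndst1. For Ndst1 and Ndst3, r was 0.841 (exact permutation p = 0.0366, adjusted p = 0.256) and rho was 0.60 (exact permutation p = 0.123, adjusted p = 0.573). Without FS 2 and FS 3, the lowest and highest rats for both genes, r was -0.063, so the relation rests on those rats. For Hs3st2 and Hs6st1, r was 0.749 (exact permutation p = 0.014, adjusted p = 0.221) and rho was 0.709 (exact permutation p = 0.0338, adjusted p = 0.422), with r at 0.395 without control 4 and FS 3. For Hs6st2 and Ndst1, r was -0.727 (exact permutation p = 0.0158, adjusted p = 0.221) and rho was -0.552 (exact permutation p = 0.114, adjusted p = 0.573), with r at -0.451 without control 2 and FS 3. Under quantile normalization this last pair passed the adjusted threshold (r = -0.897, exact permutation adjusted p = 0.0156). The other 2 pairs with an unadjusted p under 0.05 were Hs3st1 with Ndst3 (r = -0.537, exact permutation p = 0.0278, adjusted p = 0.256) and Hs6st1 with Ndst1 (r = 0.625, exact permutation p = 0.0459, adjusted p = 0.257). Their rho was -0.758 and 0.636 (exact permutation p = 0.0119 and 0.0602), and r was -0.696 without controls 4 and 5 and 0.646 without control 4 and FS 1. For Hs3st5, r with the other enzymes lay between -0.377 (Hs6st2) and 0.418 (Hs2st1).

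The dissected PFC can hold varying shares of neighbouring tissue and cortical layers, so each enzyme was also set against the mean of 13 lists of cell type markers, each gene centred on its own mean. Of 104 relations, 0 passed 0.05 after adjustment over them, and 8 had an unadjusted p under 0.05. The closest was Hs6st2 with the 11 measured markers of striatal medium spiny neurons (r = 0.931, exact permutation p = 6.9e-04, adjusted p = 0.0722). Its rho was 0.903 (exact permutation p = 0.0016, adjusted p = 0.166), and r without FS 3 and control 5 was 0.893. Of all tested genes, 0.254% had as large an absolute r with these markers.

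The marker mean of medium spiny neurons in controls 1 to 5 was 0.40, 0.54, -0.41, 0.34 and -0.50, and in FS rats 1 to 5 it was 0.21, 0.20, -0.58, -0.14 and -0.068. The rats with the least of these markers, control 3, control 5 and FS 3, were also those with the lowest Hs6st2. Single markers spanned a wide range, with Drd2 between 7.24 and 9.76 and Drd1 between 7.17 and 8.34 over the 10 rats. Hs6st2 also had an r of 0.781 with layer 6 markers (exact permutation p = 0.00285, adjusted p = 0.148), with a rho of 0.806 (exact permutation p = 0.0105, adjusted p = 0.285) and an r of 0.740 without control 2 and control 5. With markers of layer 6b and claustral neurons and of oligodendrocytes its r was 0.699 and 0.661 (exact permutation p = 0.0368 and 0.0361) and its rho 0.612 for each (exact permutation p = 0.0849 and 0.077). Without the 2 rats farthest from the median of each list these r were 0.431 and 0.60. As large an absolute r was found for 5.2% of all tested genes with layer 6 markers. For layer 6b and claustral markers it was 6.66%, and for oligodendrocyte markers 6.04%. Ndst1 ran the other way, with an r of -0.557 with medium spiny neuron markers (exact permutation p = 0.0297, adjusted p = 0.479), a rho of -0.491 (exact permutation p = 0.0988) and an r of -0.397 without FS 3 and control 5. An absolute r as large as that of Ndst1 was common, at 20.5% of all tested genes.

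Ndst3 had an r of 0.873 with the 5 measured markers of layer 5 neurons (exact permutation p = 0.00479, adjusted p = 0.166), a rho of 0.842 (exact permutation p = 0.00688, adjusted p = 0.285), and an r of 0.684 without FS 3 and control 5. Of all tested genes, 0.632% had as large an absolute r with them. The layer 5 mean was highest in FS 3, at 0.20, and lay between -0.12 and 0.076 in the other 9 rats, and FS 3 was also the only FS rat in which Ndst3 and Ndst1 were not below the controls. Hs3st1 had an r of -0.633 with the same markers (exact permutation p = 0.0319, adjusted p = 0.479), a rho of -0.794 (exact permutation p = 0.011) and an r of -0.715 without FS 3 and control 5. Hs2st1 had an r of 0.789 with markers of upper layer neurons (exact permutation p = 0.0244, adjusted p = 0.479) and a rho of 0.733 (exact permutation p = 0.0349), and r was 0.956 without control 5 and FS 2. For upper layer markers the share of tested genes with as large an absolute r was 3.68%. The part of these markers in the FS minus control differences was not tested.

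**Figure D3:**
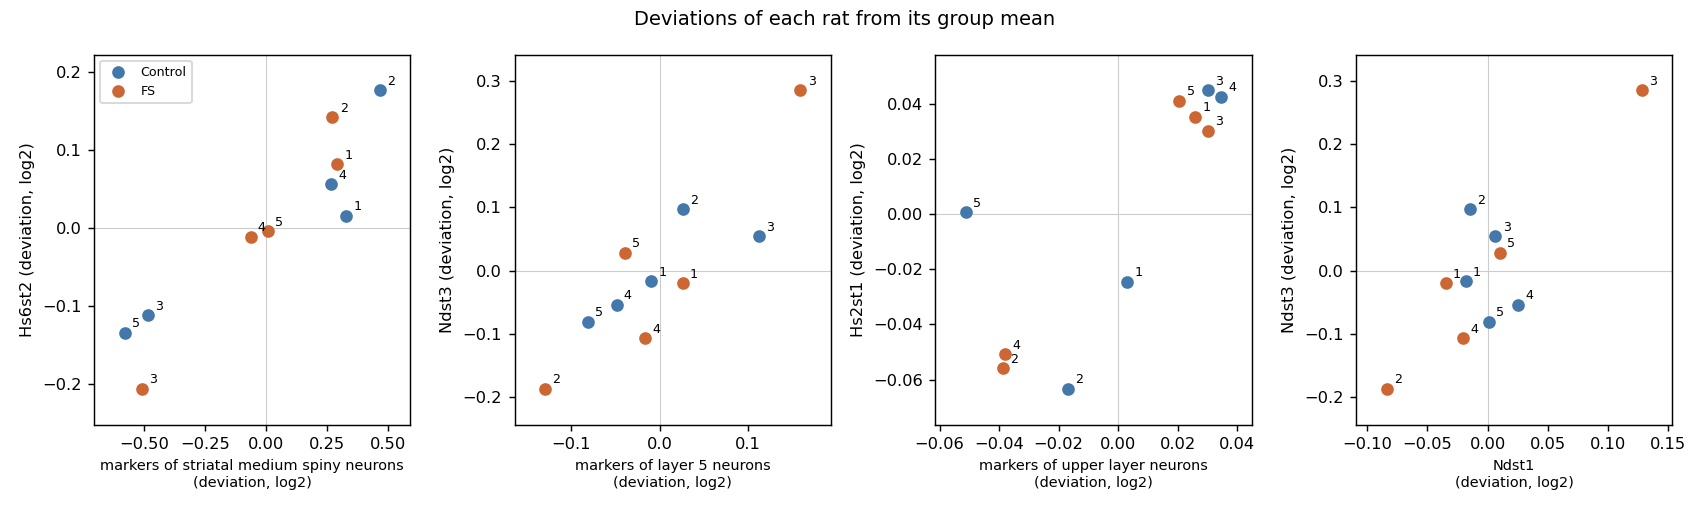
Deviation of each rat from its group mean (log2 scale on both axes) for Hs6st2 against striatal medium spiny neuron markers, Ndst3 against layer 5 markers, Hs2st1 against upper layer markers and Ndst3 against Ndst1, with points numbered by rat and coloured by group. Control 3, control 5 and FS 3 lie at the low end for Hs6st2, and FS 2 and FS 3 set the range of the Ndst plot.

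For Hs3st5, the marker list with the largest absolute r was that of oligodendrocytes (r = -0.595, exact permutation p = 0.117, rho = -0.43). Its r was 0.178 without control 3 and FS 3, and none of its 13 relations had an unadjusted p under 0.05. Its difference between groups was accompanied by group differences of the marker means of -0.055 for oligodendrocytes, -0.15 for medium spiny neurons, 0.073 for layer 5 neurons and 0.54 for choroid plexus, where FS 2 stood at 1.97, against -0.40 to 0.12 in the other 9 rats. Without FS 2 the difference of Hs3st5 was 0.22. Over the 10 rats, the 5 genes whose deviations were most like those of Hs3st5 among the 16941 genes were Klk1c2 (r = 0.919), Dhh (0.918), Myadml2 (0.912), Foxred2 (0.90) and Rnf19a (0.898). They are the top of a ranking over all genes and are named as a description. Their FS minus control differences were -0.24, 0.050, 0.078, 0.0020 and -0.010.

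**Figure D4:**
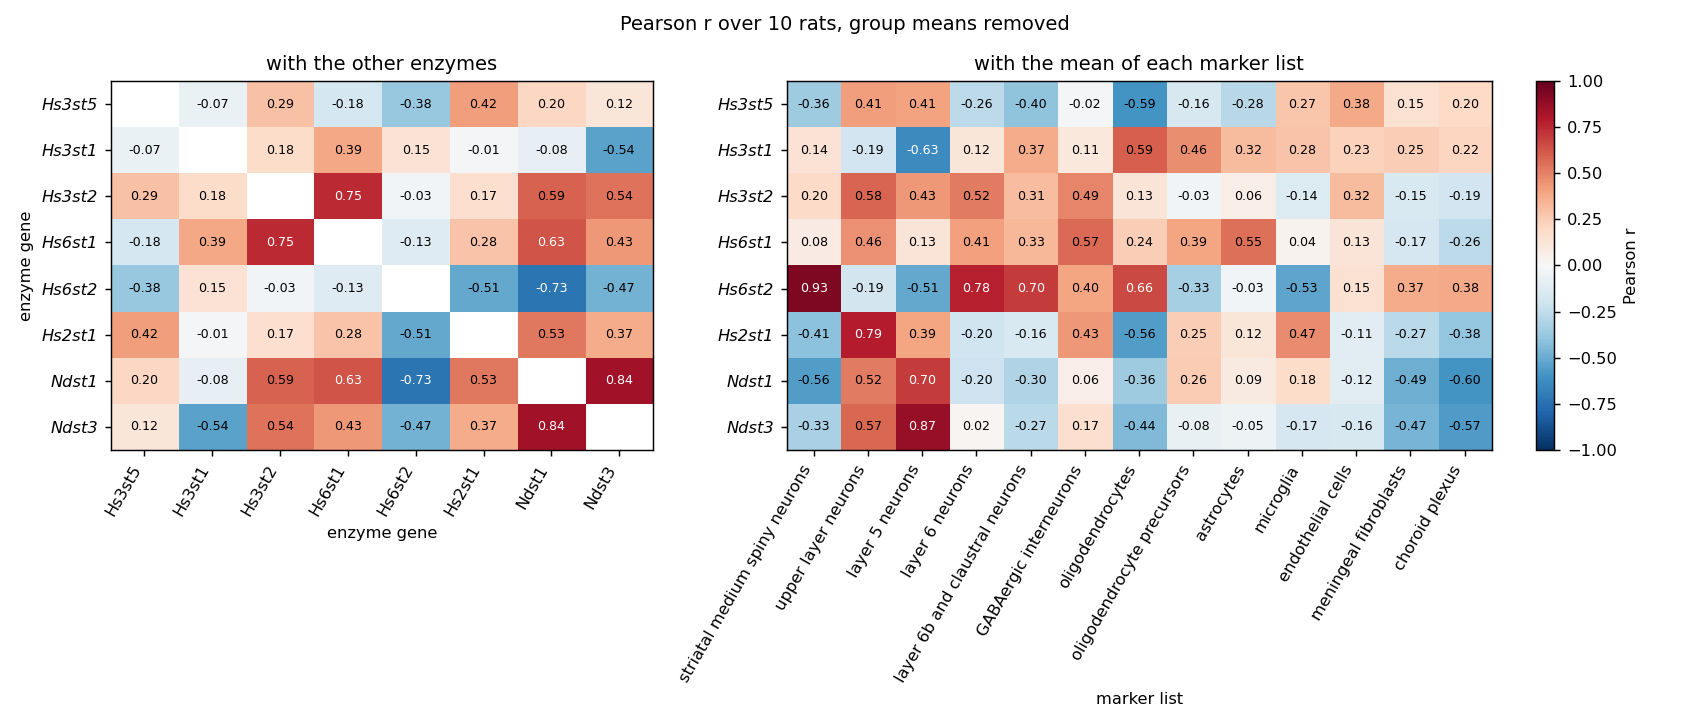
Pearson r over the deviations of 10 rats from their group means, between the 8 enzymes (left) and between each enzyme and the mean of each of 13 marker lists (right), on a colour scale from -1 to 1. The strongest fields are Hs6st2 with striatal medium spiny neuron markers (0.931), Ndst3 with layer 5 markers (0.873) and Ndst1 with Ndst3 (0.841).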

How the data were processed

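The authors read the arrays (Affymetrix Rat Gene ST) with oligo 1.58.0 and RMA, per the submitters' processing notes, and deposited 1 log2 value per probe set and rat. The build behind the probe design and any extraction or scan batches were not given in the sources used here. Probe sets were named from the platform annotation, which gives 1 symbol to 18644 of 29214 probe sets. Where a gene had several probe sets, that of highest mean level was taken, and all 8 enzymes found matched RefSeq (GRCr8) by gene ID.

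FS rats and controls were compared with limma 3.58.1 in R 4.3.3, over 18304 probe sets that carry 1 symbol and average above 4, and p-values were adjusted by Benjamini–Hochberg over all of them. The functions were tested on simulated data. The number of arrays limits the precision.

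The enzymes, pathway lists and marker lists were chosen with earlier results of these data known. Pathway genes were named where they had the highest or lowest moderated statistic of their list, and Ndst4 was added to these. Hs3st6, Hs3st3b1, Ndst2, Ext1, Ext2, Papss1, Slc35b3, Sulf2, Sdc3, Gpc4, Gpc5 and Chst13 were named after their values were seen. With 8 of 10 enzymes measured, 28 pairs were tested. Alternatives changed the filter, scaling, array weights, variance prior, probe sets per gene, replicate block and rats included.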

Additional observations from a re-analysis of the deposited data

Results flagged for a closer look

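In 4 of 82 sets of 5 rats (41 values in 2 groups), a single rat lay farther from the others than Dixon's 95% limit allows, where chance gives about 1 in 20. Hs3st2 in FS 3 was 9.1636, against 8.99 to 9.01 in the other FS rats. This was the only such case among the 16 sets of the sulfation enzymes. Ids, a lysosomal sulfatase, was 11.2275 in FS 3, against 11.07 to 11.11 in the other FS rats. Chsy1 was 9.3281 in control 5, against 9.17 to 9.20 in the other controls. The mean of choroid plexus markers was 1.9652 in FS 2, against -0.30 to 0.12 in the other FS rats.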

How the results depend on the processing

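The Hs3st5 difference kept its sign in 15 of 15 alternatives (0.21 to 0.26), as did those of Hs6st1, Ndst1 and Ndst3, while those of Hs3st1, Hs3st2, Hs6st2 and Hs2st1 kept it in 14, 13, 11 and 8 of 15. Leaving out a rat could not turn the sign of Hs3st5, because its groups do not overlap. The replicate block, balanced between groups, and the mean over the 1 probe set of each enzyme could not move any of these differences. The number of probe sets past the adjusted threshold was 0 in each setting but 1, and leaving out single rats gave 0 to 1. The 1 was Or4c122 without control replicate 2 (limma adjusted p = 0.0381), named after its value was seen. Called pathway genes stayed at 0, with 5 to 10 higher and 0 to 3 lower at an unadjusted p under 0.05. Among enzyme pairs, 1 passed after quantile normalization and 1 with arrays centred on their medians, Hs6st2 with Ndst1 each time. Among relations with marker lists, 2 passed after quantile normalization, those of Hs6st2 and Ndst1 with medium spiny neuron markers (exact permutation adjusted p = 0.0289 and 0.00722). Over all alternatives r lay between 0.883 and 0.966 for Hs6st2 and between -0.826 and -0.318 for Ndst1. Unadjusted p under 0.05 was found for 1053 probe sets higher and 749 lower, 1287 and 575 with arrays centred, 807 and 767 after quantile normalization, 1371 and 907 with array weights, and 941 and 799 with an intensity trend. Leaving out single rats gave 784 to 1641 higher and 549 to 948 lower, the highest of both without control replicate 5. The number of arrays, 5 per group, limits the precision.

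With the replicate block, 0 probe sets and 0 pathway genes were called and the Hs3st5 difference was 0.23. Same-numbered rats correlated over 0.1 in 2 of 5 pairs, and 5 of 10 rats correlated best with their own number. These counts do not decide whether equal numbers mark pairs, and rats of equal number were treated as unpaired in the main fit. The block changed standard errors in either direction, from 0.073 to 0.047 for Hs6st2 and from 0.055 to 0.062 for Hs6st1.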
